A study of Mus musculus with 2 samples.

Results

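Colony-stimulating factors are secreted proteins that direct the growth and activation of myeloid cells, and 8 of the 32285 genes counted in dissociated mouse knee joints are described here. They were taken by gene symbol: the ligand genes Csf1, Il34, Csf2 and Csf3 and the receptor genes Csf1r, Csf2ra, Csf2rb and Csf3r. All 8 were found in the count matrix, each under a single identifier. They were chosen by their levels across the cell types of these same cells, so the levels below are a description and carry no test. The question followed through the data is which cells of the joint held ligand transcripts and which held receptor transcripts.

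The cells came from hindlimb knee joints of mice at postnatal day 7, of both sexes, either Col12a1 knockout or wild type. Col12a1 encodes a chain of collagen XII, a collagen associated with fibrils. What the labels give of the knockout is its genotype only, without the allele or a tissue restriction. Skin and paws were taken off, collagenase II (4 mg/mL) was applied over 6 h, and the freed cells went into droplet-based 3' sequencing (10x Genomics, v3). The labels describe 3 libraries of each genotype, from 2 experiments with 1 and 2 libraries of each, and the matrix is a single merged one.

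Barcodes in the matrix end in 1 or 2, here called barcode sets 1 and 2, and which genotype or experiment each ending stands for is not stated in the labels. Knockout and wild-type cells were therefore not compared, and the cells are described as 1 sample holding both genotypes. After filtering, 15170 of 24203 barcodes were kept, 7157 in set 1 (median 10959 UMIs, counted molecules) and 8013 in set 2 (median 9623 UMIs). The sets share 40 barcode sequences. Doublet calling marked only 4 of the cells, 3 in set 1 and 1 in set 2, so the caller had in effect not worked and doublets remain among the cells. Levels are CPM, the UMIs of a gene per 1000000 UMIs of all genes in the same cells. The intervals given with levels and shares (95%) cover only counting error, neither the spread between mice nor that between cells.

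CSF1 and IL-34 are unrelated in sequence but bind the same receptor, the tyrosine kinase CSF1R, on which most tissue macrophages and osteoclast precursors depend. CSF2, also called GM-CSF, binds a receptor made of the specific alpha chain encoded by Csf2ra and a beta chain encoded by Csf2rb, which the receptors for IL-3 and IL-5 also use. CSF3, or G-CSF, binds CSF3R and drives the production and release of neutrophils. In inflamed joints, fibroblasts exposed to IL-1 or TNF are a well-known source of CSFs, and CSF2 and CSF3 act there on macrophages and neutrophils.

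Sequence bears on the counts of 1 receptor gene and on the promoters of a pair of ligand genes. Mice carry a copy of Csf2rb, Csf2rb2, which encodes the beta chain specific to IL-3. The coding sequences of Csf2rb and Csf2rb2 aligned with 95.2% of 2628 bases identical (GENCODE M21 annotation), and reads from a stretch they share could not be told apart. Over the last 500 bases of the transcripts, nearest to where 3' libraries are read, 85.7% of 463 aligned bases were identical. Of all 90-base stretches of the Csf2rb transcript, 8.19% occur letter for letter in Csf2rb2. Coding bases 2545 to 2634 of both genes, on chromosome 15, are given here 5′ to 3′ to show how few letters tell them apart, with the 6 differing bases in capitals.
Csf2rb: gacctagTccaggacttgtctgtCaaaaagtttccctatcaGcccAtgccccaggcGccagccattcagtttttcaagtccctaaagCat
Csf2rb2: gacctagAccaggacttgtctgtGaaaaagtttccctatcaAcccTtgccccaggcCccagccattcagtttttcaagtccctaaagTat

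Csf1 and Csf2 were highest in the same groups of cells, and the 250 bases before their RefSeq start sites (GRCm38.p6) are given here for that reason. The Csf1 window, chr3:107760470-107760719 on the minus strand, holds overlapping matches to the kappa-B consensus between 155 and 145 bases before the start, in capitals. That consensus, searched on both strands, was present in 16.9% of 32536 such windows. It was chosen after the Csf1 sequence had been seen, in place of a looser form found in 46.0% of windows.
Csf1: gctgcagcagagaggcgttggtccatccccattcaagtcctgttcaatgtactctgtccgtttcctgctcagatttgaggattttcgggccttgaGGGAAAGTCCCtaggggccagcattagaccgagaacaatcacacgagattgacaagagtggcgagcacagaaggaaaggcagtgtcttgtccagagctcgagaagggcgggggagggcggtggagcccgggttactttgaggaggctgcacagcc
The Csf2 window, chr11:54249900-54250149 on the minus strand, lies before a RefSeq start 232 bases upstream of the GENCODE start. It holds a match to the C/EBP letters TTGCNNAA between 145 and 138 bases before the RefSeq start, in capitals, which 9.57% of windows hold on either strand.
Csf2: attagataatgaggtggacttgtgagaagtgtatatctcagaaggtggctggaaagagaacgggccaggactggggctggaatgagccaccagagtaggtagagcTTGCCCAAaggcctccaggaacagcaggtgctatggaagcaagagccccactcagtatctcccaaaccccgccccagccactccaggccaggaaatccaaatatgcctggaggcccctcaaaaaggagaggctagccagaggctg
Neither window held the AP-1 letters TGANTCA, found in 6.73% of windows. The window of the receptor gene Csf3r, also searched, held the kappa-B consensus between 129 and 120 bases before its RefSeq start. A match is a run of letters and no evidence of binding.

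The kept cells formed 30 clusters, of which 28 were named from marker genes and fell into 16 classes, written as "-like" because the names rest on markers alone. Cluster 0, with 1492 cells, and cluster 24, with 222 cells, met no name and are given by number, which makes 18 groups of cells. Cluster 0 was led by Il1rl1, a receptor gene for IL-33, and by Cxcl5, Cxcl1, Pcdh7 and Nptx1, with Csf2 and Csf3 also among its top 10 genes. The class nearest to it was fibroblast, with a median marker fold of 0.96 on the log2 scale and 4 of 10 markers met, just short of the rule. Cluster 24 was led by S100a4, Anxa8, Cdh13 and Crabp2. The fibroblast-like class holds clusters 1, 2 and 10, and cluster 1, with 912 cells, was led by Saa3, Ptx3 and Brinp3. Cluster 2, with 851 cells, was led by Gadd45g and the heat shock genes Hspa1a and Hspa1b, with Fos also among its top 10. The part of the 6 h digestion in the levels of any group was not tested. Cluster 13, called chondrocyte-like, has the lining marker Prg4 among its leading genes, and cluster 14, called granulocyte progenitor-like, has Ppbp and Nkg7. Members of the CSF group, Csf2rb2 and the genes of 6 pathway lists were left out of clustering, so they did not decide which cells were grouped.

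The names depend in places on how the cells were clustered. In 6 of 9 other clusterings a further group of 99 to 163 cells was named monocyte or dendritic-like. With another clustering seed that group had 105 cells, all of them within macrophage-like cluster 9 here. Cells resembling cluster 0 were fibroblast-like in some of these clusterings and unnamed in others.

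Ligands and receptors were held mostly by separate groups of cells, with Csf3 the exception. A member was called higher in a group when it had at least 100 UMIs, its CPM was at least 2 times that of all other kept cells, the interval of the ratio excluded 1 and both barcode sets gave the same direction. Of 144 pairs of a member and a group of cells, 18 were called higher, 10 for ligands and 8 for receptors, and 109 were called lower, at a ratio of 0.5 or less. Each count is given beside the share of all 16898 genes tested that was called the same way in those cells.

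All 4 ligands were called higher and all 4 receptors lower in cluster 0 (3.94% of all genes higher, 34.3% lower). Fibroblast-like cells had Csf1, Il34 and Csf2 higher and the 4 receptors lower (8.61% and 20.4% of all genes). Macrophage-like cells had Csf1r, Csf2ra, Csf2rb and Csf3 higher and the other ligands lower (9.91% and 45.3%). Neutrophil-like cells had Csf2ra, Csf2rb and Csf3r higher and 5 members lower (10.5% and 55.6%). A single member was higher and 7 were lower in pericyte or smooth muscle-like cells (Il34, 9.87% and 13.4%), Schwann-like cells (Il34, 14.3% and 12.2%) and mast cell-like cells (Csf2rb, 6.78% and 25.3%). Granulocyte progenitor-like cells had Csf2ra higher and the 4 ligands lower (14.8% and 28%).

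The other 10 groups had no member called higher. All 8 members were lower in erythroid-like cells, where 8.7% of all genes were higher and 70.6% lower, in osteoblast-like cells (6.46% and 20.7%) and in skeletal myofibre-like cells (7.43% and 50.5%). Of the members, 7 were lower in B cell-like (22.2% and 30.1%), chondrocyte-like (8.11% and 31.2%), muscle progenitor-like (13.2% and 23.1%) and tenocyte or ligament fibroblast-like cells (6.61% and 21.1%). In synovial lining fibroblast-like cells 6 were lower (7.59% and 21.8%), and 5 were lower in endothelial-like cells (11% and 21.1%) and in cluster 24 (3.72% and 18.6%). Since most genes were lower in erythroid-like, neutrophil-like and skeletal myofibre-like cells, the lower calls there say little about the members.

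**Figure D1:**
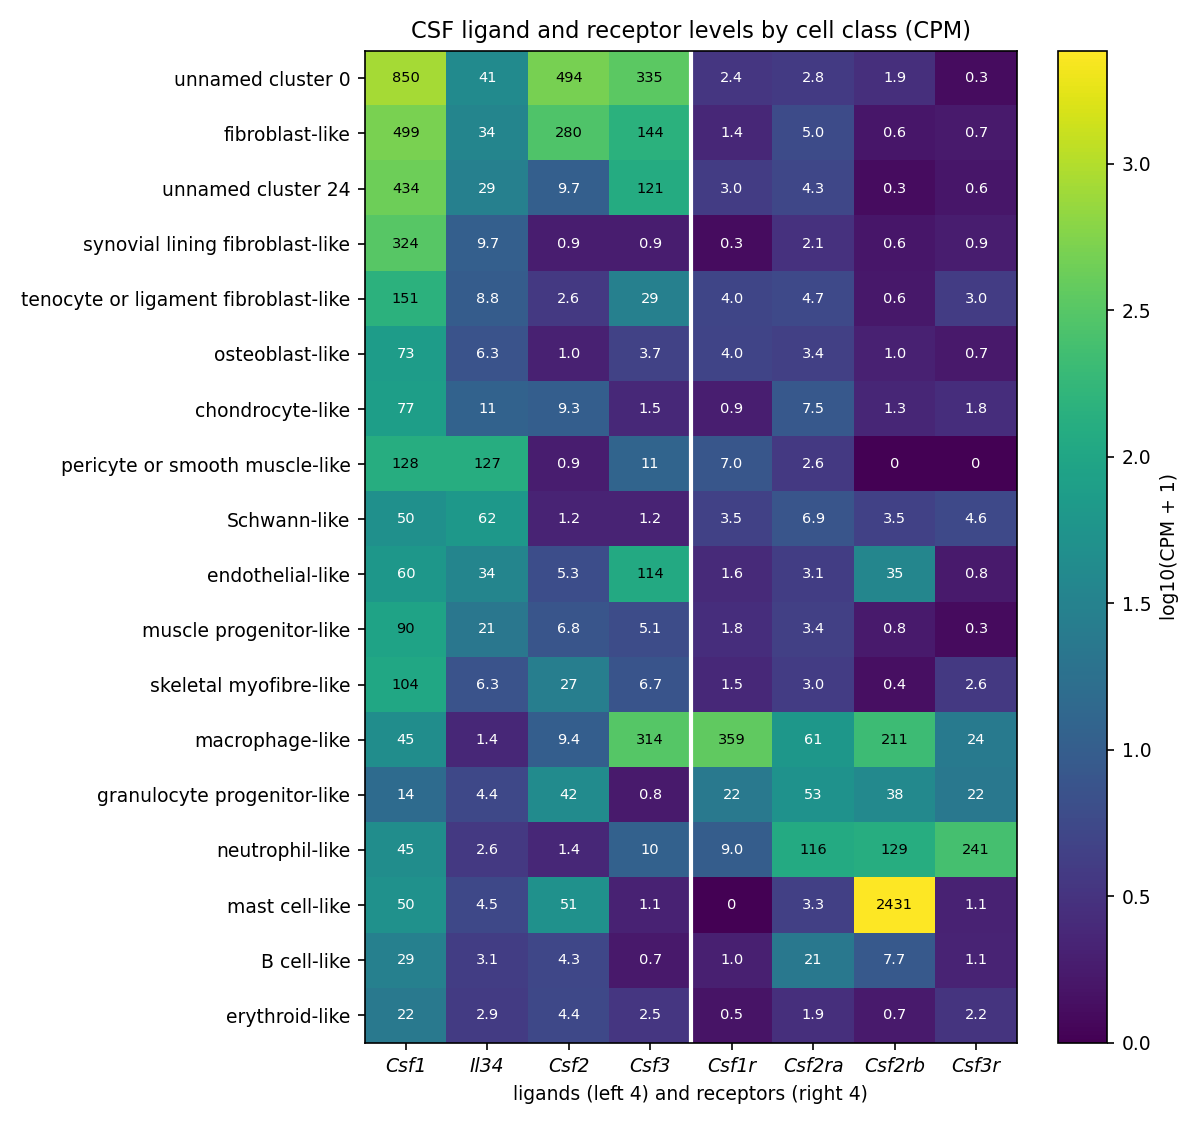
Level of each ligand (left 4 columns) and receptor (right 4 columns) in the 16 classes and 2 unnamed clusters, with the CPM printed in each cell and the colour on a log10(CPM + 1) scale. Csf1, Csf2 and Csf3 were highest in cluster 0 at the top, receptors in macrophage-like, neutrophil-like and mast cell-like rows, with Csf2rb at 2431 CPM in mast cell-like cells, and Csf3 was also high in macrophage-like cells.

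Csf1 (ENSMUSG00000014599), on chromosome 3 at 107741048 to 107760469 (mm10, minus strand), encodes the main growth factor of macrophages and was the most abundant and most widespread of the ligand transcripts. Its 55410 UMIs lay in 5518 kept cells, 36.4% of them. It stood at 850 CPM in cluster 0 (838 to 861), 499 CPM in fibroblast-like cells (493 to 506), 434 CPM in cluster 24 (412 to 457) and 324 CPM in synovial lining fibroblast-like cells (305 to 344). None of these intervals overlap, so their order exceeds counting error. The ratio to all other kept cells was 4.74 in cluster 0 (4.66 to 4.82) and 2.58 in fibroblast-like cells (2.54 to 2.63). Cluster 0 held 833 CPM in set 1, and in set 2 it held 867 CPM, while fibroblast-like cells held 533 and 467 CPM. Tenocyte or ligament fibroblast-like cells followed at 151 CPM and pericyte or smooth muscle-like cells at 128 CPM, with overlapping intervals. In all, 9 of the 17 neighbouring pairs in the order overlapped. The lowest level, 14.27 CPM, was in granulocyte progenitor-like cells.

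Within the fibroblast-like class Csf1 was far from even. Cluster 1 held 887 CPM, at 851 CPM in set 1 against 938 CPM in set 2, while cluster 2 held 232 CPM and cluster 10, led by Abca8a and Ebf2, held 107.5 CPM. Cluster 0 gave 38.2% of all Csf1 UMIs and cluster 1 gave 32.1%. With each cell thinned to 2000 UMIs, which left out 4 cells of cluster 0, 16 fibroblast-like and 148 erythroid-like cells, Csf1 was found in 52.4% of cells of cluster 0 and 37.7% of fibroblast-like cells. Erythroid-like cells, which should lack all 8 transcripts, showed it in 1.57% after thinning. Without thinning the shares were 80.3%, 77.2% and 3.55%, at median depths of 11129, 15936 and 5155 UMIs.

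Il34 (ENSMUSG00000031750), on chromosome 8 at 110741829 to 110805924 (minus strand), encodes the alternative ligand of CSF1R, known from skin and brain. It was the scarcest ligand, with 4101 UMIs, and its highest level lay outside the fibroblasts. Pericyte or smooth muscle-like cells held 127 CPM (107 to 149), from 145 UMIs in 98 cells. The sets differed, at 68.1 CPM in set 1 against 208 CPM in set 2. Schwann-like cells held 62.4 CPM (46.9 to 81.4), cluster 0 held 40.5 CPM (38.1 to 43.1), endothelial-like cells 34.2 CPM and fibroblast-like cells 33.9 CPM. The intervals of cluster 0 and endothelial-like cells overlap, as do those of endothelial-like and fibroblast-like cells. Most Il34 UMIs were nonetheless in the numerous cells of the fibroblast-like class, at 37.0%, and of cluster 0, at 24.6%, against 3.54% in pericyte or smooth muscle-like cells. After thinning, 21.7% of pericyte or smooth muscle-like cells had an Il34 UMI (13.8 to 31.6), against 0.363% of erythroid-like cells. Among the muscle progenitor-like clusters, Il34 stood at 41.7 CPM in cluster 18, which was led by the cell division gene Hist1h1b and by Myod1, and at 11.3 CPM or less in clusters 8 and 17. In cluster 18, 6 of 333 cells held 50% of the 258 Il34 UMIs, and 1 cell held 56.

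**Figure D2:**
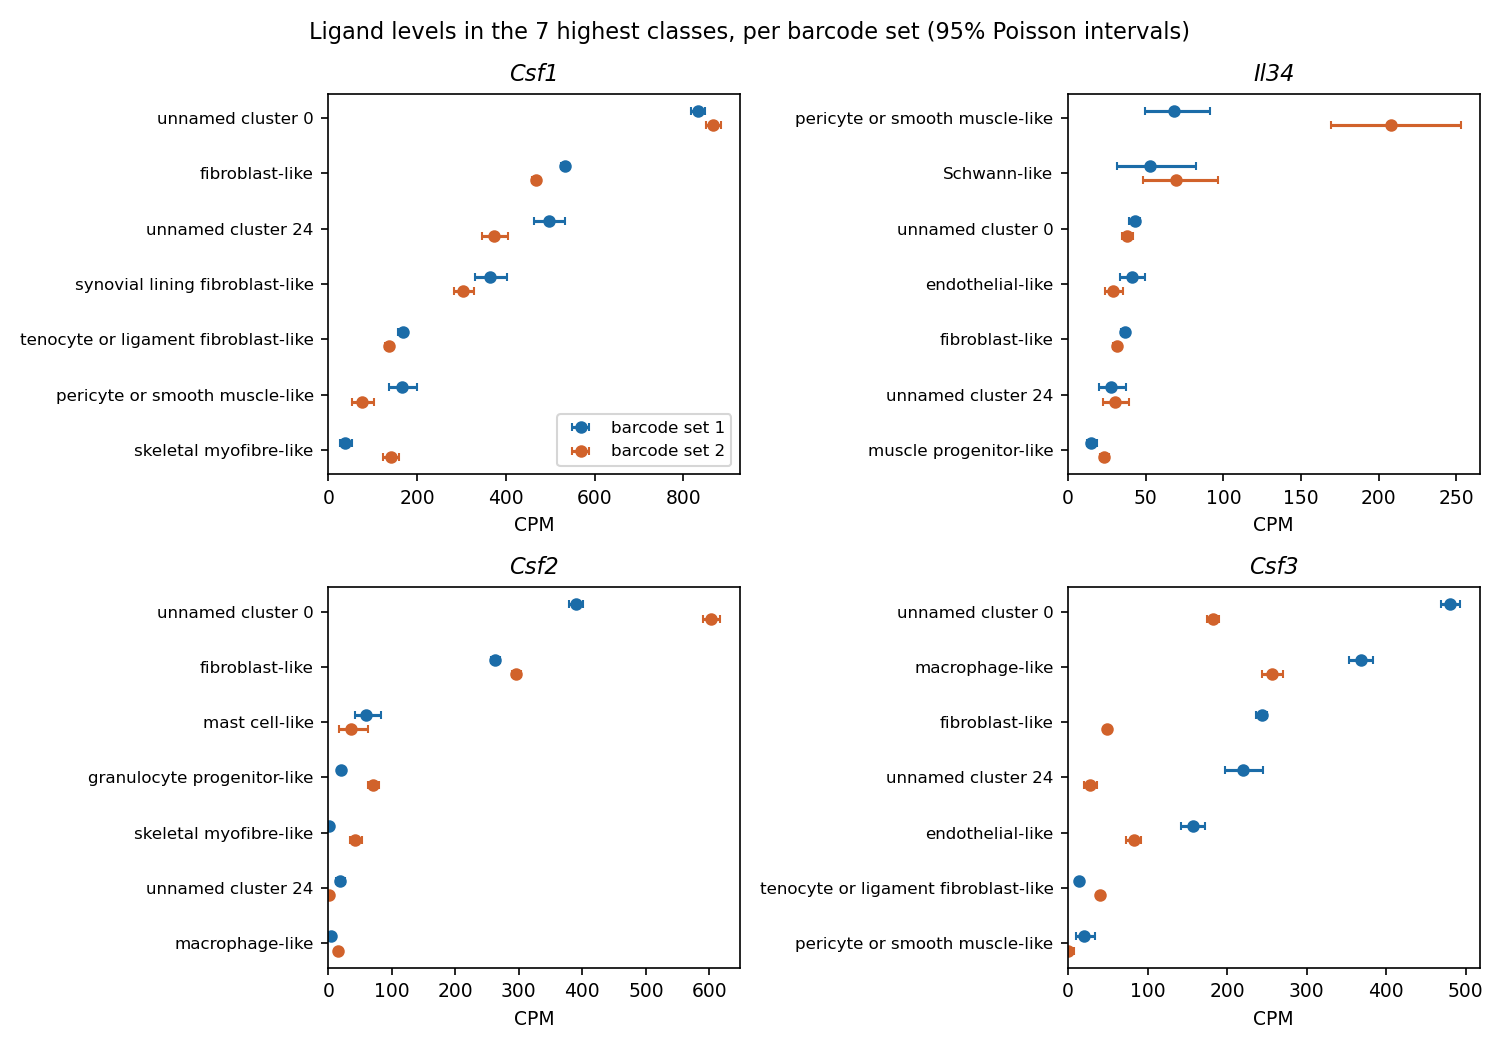
CPM of the 4 ligands in the 7 groups of cells where each was highest, with barcode set 1 in blue and set 2 in orange and bars for 95% Poisson intervals of counting error. Csf1 in cluster 0 was 833 CPM in set 1 and 867 CPM in set 2, while Csf3 in fibroblast-like cells was 243 and 49.6 CPM, and Csf2 in cluster 0 was 390.1 and 603 CPM.

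Csf2 (ENSMUSG00000018916), on chromosome 11 at 54247271 to 54249667 (minus strand), encodes GM-CSF and was abundant in few cells. Its 26056 UMIs came from 846 kept cells, 5.58% of all. Cluster 0 held 494 CPM (485 to 503) and fibroblast-like cells 280.2 CPM (275 to 285). The ratios to all other kept cells were 6.85 (6.69 to 7.02) and 3.55 (3.46 to 3.63). After thinning, 11.3% of cells of cluster 0, 10.5% of fibroblast-like cells and 0.302% of erythroid-like cells had a Csf2 UMI, and without thinning the shares in the first pair were 16.3% and 15.4%. Mast cell-like cells followed at 51.2 CPM (37.5 to 68.4) and granulocyte progenitor-like cells at 42.4 CPM (38.3 to 46.8), with overlapping intervals. Skeletal myofibre-like cells held 27.5 CPM, at 1.02 CPM in set 1 against 42.7 CPM in set 2. No other group exceeded 9.73 CPM, and erythroid-like cells held 4.44 CPM. In cluster 0 the sets differed, at 390.1 CPM in set 1 against 603 CPM in set 2, and in the fibroblast-like class they held 263 and 296 CPM. Within that class, cluster 1 held 614 CPM, above cluster 0 and without overlap of the intervals, whereas cluster 2 held 12.9 CPM and cluster 10 held 2.10 CPM. Clusters 1 and 0 held 47.3% and 47.2% of all Csf2 UMIs.

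Csf3 (ENSMUSG00000038067), on chromosome 11 at 98701263 to 98703629 (plus strand), encodes G-CSF and was the one ligand that was also high in macrophage-like cells. Cluster 0 held 335 CPM (328 to 343), macrophage-like cells 314 CPM (304 to 323) and fibroblast-like cells 144 CPM (140.1 to 147), and these intervals do not overlap. By cluster, macrophage-like cluster 9 was highest at 376 CPM, ahead of cluster 0 and of cluster 1, the part of the fibroblast-like class with the transcript, at 319 CPM. The other macrophage-like cluster, cluster 25, held 24.7 CPM. Over all kept cells Csf3 stood at 138 CPM in set 1 against 53.0 CPM in set 2. In cluster 0 set 1 held 481 CPM and set 2 held 182 CPM, and in cluster 1 they held 449 and 135 CPM. Macrophage-like cells, at 368 and 257 CPM, differed less, and in set 2 alone they were the leading group. Whether the sets differ in genotype, mice or handling cannot be told apart here.

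Transcripts of Csf2 and Csf3 were concentrated in a small number of cells even inside their leading clusters. In cluster 0, 1249 of 1492 cells had no Csf2 UMI, 99 had 1 to 9 and 144 had 10 or more, and the highest cell had 1143. Just 18 cells held 50% of the cluster's 12293 Csf2 UMIs. For Csf3, 1305 cells had none and 98 had 10 or more, with 537 in the highest cell, and 18 cells held 50% of 8347 UMIs. Csf1 was spread over 1198 of the same cells, with a median of 5 UMIs and 121 cells holding 50% of its 21151 UMIs. In cluster 1, Csf2 was found in 325 of 912 cells, 203 of them with 10 or more UMIs, and 43 cells held 50% of 12315 UMIs.

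Few genes with as many UMIs or more were found in so few cells. The sets compared include genes with more UMIs, which can reach more cells, and the part of this was not tested. In cluster 0, 264 genes (Csf2 included) had at least as many UMIs as Csf2, and none was found in fewer cells than its 243, while their median was 1465 cells. For Csf3, Cxcl3 alone among 386 such genes was found in fewer cells than its 187. In cluster 1 only Saa3 was found in fewer cells than Csf2 among 226 genes, and than Csf3 among 431.

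Cells rich in Csf2 were present in both barcode sets. At least 10 Csf2 UMIs were found in 80 of the 693 cells that set 1 gave to cluster 0 (11.5%), and in 64 of the 799 from set 2 (8.01%), with mean contents of 59.7 and 112 UMIs in those cells. Cells with at least 10 Csf3 UMIs were 10.7% of cluster 0 in set 1 and 3.004% in set 2, with mean contents of 80.5 and 86.7 UMIs. For Csf3 the sets thus differed more in how many cells were rich than in the mean content of those cells, and for Csf2 the mean content differed more. Depth differed too: cells of cluster 0 with at least 10 Csf2 UMIs had a median of 24587.5 UMIs in all, and those without Csf2 had 10658. For Csf3 the medians were 30088.5 and 10681 UMIs. The part of depth in these counts was not tested. The 8 macrophage markers, none at 0, summed to 15.6 CPM in cluster 0 and 10.2 CPM in cluster 1. The 9 neutrophil markers, none at 0, summed to 532 and 539 CPM, and their part was not tested.

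**Figure D3:**
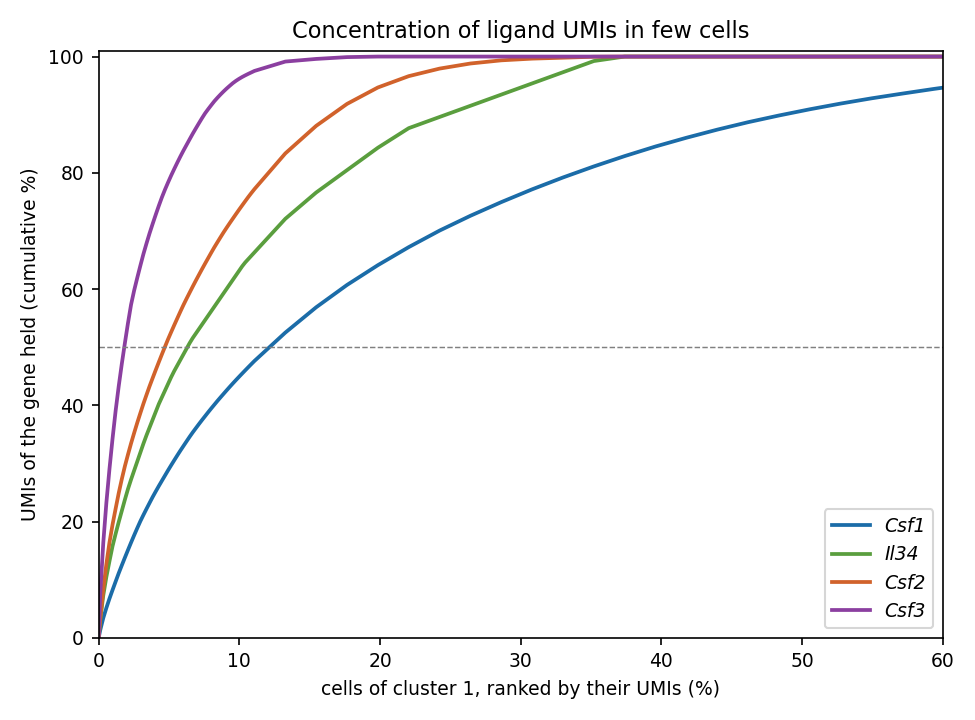
Cumulative percent of the UMIs of each ligand (vertical axis) held by the cells of fibroblast-like cluster 1, the cluster with the highest Csf2 level, ranked by their UMIs of that ligand (horizontal axis, percent of 912 cells, drawn to 60%). The 10% of cells richest in each gene held 96.2% of Csf3, 73.7% of Csf2, 63.1% of Il34 and 44.9% of Csf1 UMIs, and the dashed line marks 50%.

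In cluster 0 a larger share of the cells rich in Csf2 than of the rest was rich in Csf3, and in cluster 1 the shares were close. After thinning to 2000 UMIs, Csf2 was found in 15.7% of cells of cluster 0 with Csf1 and in 6.49% of those without it. In cluster 1 these shares were 28.7% and 21.4%. In cluster 0, Csf3 was found in 16.7% of cells with Csf2 and in 6.59% of those without it. In cluster 1 the corresponding shares for Csf3 were 10.2% and 11.1%. Of the 144 cells of cluster 0 with at least 10 Csf2 UMIs, 29 also had at least 10 Csf3 UMIs, which is 20.1% of them, against 5.12% of the rest of the cluster, and 29.6% of the 98 cells rich in Csf3. In cluster 1, 23 of 203 did, which is 11.3% of them, against 9.87% of the rest, and 24.7% of the 93 cells rich in Csf3.

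Several lower ligand levels rested on 1 or a few cells, and the Poisson intervals above do not show that. In cluster 24, a single cell had 286 of 398 Csf3 UMIs, behind 220.3 CPM in set 1 and 27.7 CPM in set 2. Among 237 endothelial-like cells, 3 held at least 50% of 731 Csf3 UMIs. Of the 395 Csf2 UMIs in granulocyte progenitor-like cluster 14, 222 were in 1 cell. In mast cell-like cells 1 cell held 34 of 46 Csf2 UMIs, and in skeletal myofibre-like cells 1 cell held 68 of 74. In skeletal myofibre-like cells, 1 cell held 178 of 279 Csf1 UMIs. Macrophage-like cluster 9 was less extreme, with 214 of 661 cells carrying Csf3, 27 of them holding 50%. There, 91 cells had at least 10 Csf3 UMIs, 50 of 320 in set 1 and 41 of 341 in set 2. After thinning, 15.6% of macrophage-like cells had a Csf3 UMI (13.2 to 18.2), against 0.302% of erythroid-like cells.

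Csf1r (ENSMUSG00000024621), on chromosome 18 at 61100598 to 61132149 (plus strand), encodes the receptor for CSF1 and IL-34 and was concentrated in 1 group of cells. Macrophage-like cells held 359 CPM (348 to 369), at 302 CPM in set 1 against 418 CPM in set 2, and 86.6% of its 5187 UMIs. The ratio to all other kept cells was 105 (97.2 to 114). Granulocyte progenitor-like cells held 22.2 CPM and neutrophil-like cells 9.03 CPM. No other group exceeded 7.01 CPM, and mast cell-like cells were at 0. The 2 macrophage-like clusters differed: cluster 25, led by C1qa, C1qc, C1qb and Apoe, held 810 CPM (773 to 848), and cluster 9, led by Ccl4 and the interferon gene Ifnb1, held 261 CPM (251 to 271). The 8 macrophage markers were all present in both, and summed to 10292 CPM in cluster 25 and 3399 CPM in cluster 9. After thinning, 48.7% of macrophage-like cells and 0.0605% of erythroid-like cells had a Csf1r UMI. Unthinned, the share in macrophage-like cells was 85.4% at a median of 10670 UMIs. Hmgxb3 overlaps the end of Csf1r on the opposite strand and had 4389 UMIs; how strand was handled in counting is not stated in the labels.

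Csf2ra (ENSMUSG00000059326), on chromosome 19 at 61223957 to 61228429 (minus strand), encodes the chain that gives the GM-CSF receptor its specificity. Neutrophil-like cells held 116 CPM (111 to 121), at 107 CPM in set 1 against 132 CPM in set 2, and 50.1% of its UMIs. The ratio to all other kept cells was 10.7 (10.1 to 11.4). Macrophage-like cells followed at 60.6 CPM (56.4 to 65.1) and granulocyte progenitor-like cells at 52.9 CPM (48.3 to 57.8), with overlapping intervals. B cell-like cells held 21.4 CPM. In the 6 clusterings with a monocyte or dendritic-like group, that group held 116 to 134 CPM, so that it lay close to or above neutrophil-like cells. After thinning, 24.3% of neutrophil-like cells and 0.121% of erythroid-like cells had a Csf2ra UMI.

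Csf2rb (ENSMUSG00000071713), on chromosome 15 at 78325752 to 78353847 (plus strand), encodes the shared signalling chain and had the highest level of any member in any group. Mast cell-like cells held 2431 CPM (2330 to 2535), at 2231 CPM in set 1 against 2805 CPM in set 2. The 9 neutrophil markers, 1 of them at 0, summed to 6649 CPM in these cells, beside 57806 CPM for the 6 mast cell markers, and their part in the Csf2rb level was not tested. The ratio to all other kept cells was 89.8 (85.4 to 94.3). Macrophage-like cells held 211 CPM (203 to 219), at 244 CPM in cluster 9 and 61.4 CPM in cluster 25, and neutrophil-like cells held 129 CPM. The neutrophil-like clusters were uneven too. Cluster 4 gave 1302 Csf2rb UMIs from 847 cells (median depth 4872 UMIs) and cluster 12 gave 268 from 578 cells (6225 UMIs). Cluster 21 gave 506 from 301 cells (18935 UMIs) and cluster 23 gave 316 from 231 cells (7469 UMIs). In the 6 clusterings with a monocyte or dendritic-like group, that group held 555 to 660 CPM, while the macrophage-like cells left beside it held 127 to 132 CPM. Endothelial-like cells, at 34.7 CPM, were the only group outside the blood lineages above 3.47 CPM. Their 222 UMIs lay in 53 of 237 cells, and 8 cells held at least 50% of them. The alpha chain did not follow: Csf2ra was at 3.34 CPM in mast cell-like cells. After thinning, 79.0% of mast cell-like cells and 22.7% of macrophage-like cells had a Csf2rb UMI, and none of the 1654 erythroid-like cells did (up to 0.223%). Over all kept cells Csf2rb held 46.8 CPM in set 1 and 27.2 CPM in set 2.

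Csf2rb2 (ENSMUSG00000071714), on chromosome 15 at 78282507 to 78305721 (minus strand), was high in mast cell-like cells as well, at 2502 CPM, but not in proportion elsewhere. Its share of the UMIs of both genes was 50.7% in mast cell-like cells (49.2 to 52.2), 29.4% in macrophage-like cluster 25 (23.1 to 36.3), 24.3% in macrophage-like cluster 9 (22.8 to 25.7) and 23.7% in endothelial-like cells (18.9 to 29.0). The last 3 intervals overlap. The 4 neutrophil-like clusters lay between 0.629% and 8.17%. The share in cluster 9 was 25.6% in set 1 and 22.04% in set 2. Reads assigned to the wrong copy would move these shares, and their part was not tested.

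**Figure D4:**
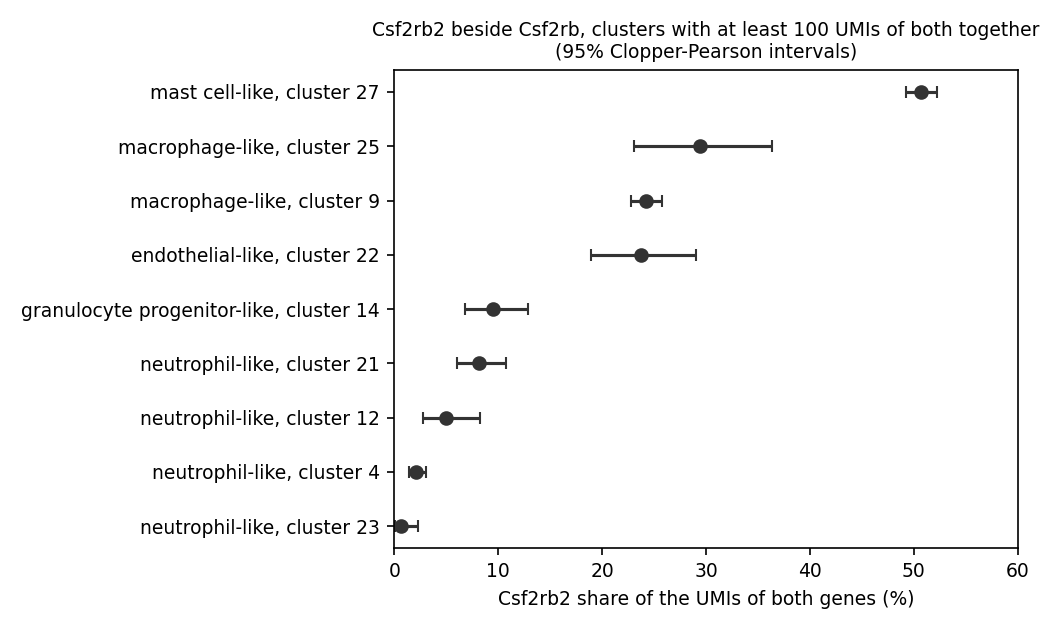
Csf2rb2 share of the UMIs of Csf2rb and Csf2rb2 together (horizontal axis, percent, with 95% Clopper-Pearson intervals) in the 9 clusters with at least 100 UMIs of both genes together. The share was 50.7% in mast cell-like cluster 27, 29.4% and 24.3% in the macrophage-like clusters and 8.17% or less in the neutrophil-like clusters.

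Csf3r (ENSMUSG00000028859), on chromosome 4 at 126024550 to 126044440 (plus strand), encodes the G-CSF receptor, and 86.5% of its UMIs were in neutrophil-like cells. They held 241 CPM (234 to 248), at 231 CPM in set 1 against 258 CPM in set 2, and the ratio to all other kept cells was 68.1 (62.8 to 73.8). After thinning, 39.7% of neutrophil-like cells and 0.121% of erythroid-like cells had a Csf3r UMI. Macrophage-like cells held 23.7 CPM and granulocyte progenitor-like cells 21.8 CPM, with overlapping intervals. The 4 neutrophil-like clusters differed, with no overlap of their intervals. Cluster 4, led by Asprv1, Retnlg and Il1f9, held 476 CPM (458 to 494), and cluster 12, led by Slc2a3 and Mmp8, held 297 CPM (282 to 314). Cluster 23, led by Ifitm6 and the granule gene Ltf, held 111 CPM (97.4 to 125). Cluster 21, led by Chil3, Camp and Fcnb, genes of immature neutrophils, held 43.9 CPM (38.9 to 49.4). Csf2ra varied less over the same clusters, with 139.9, 124, 124 and 86.6 CPM in clusters 4, 12, 23 and 21.

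**Figure D5:**
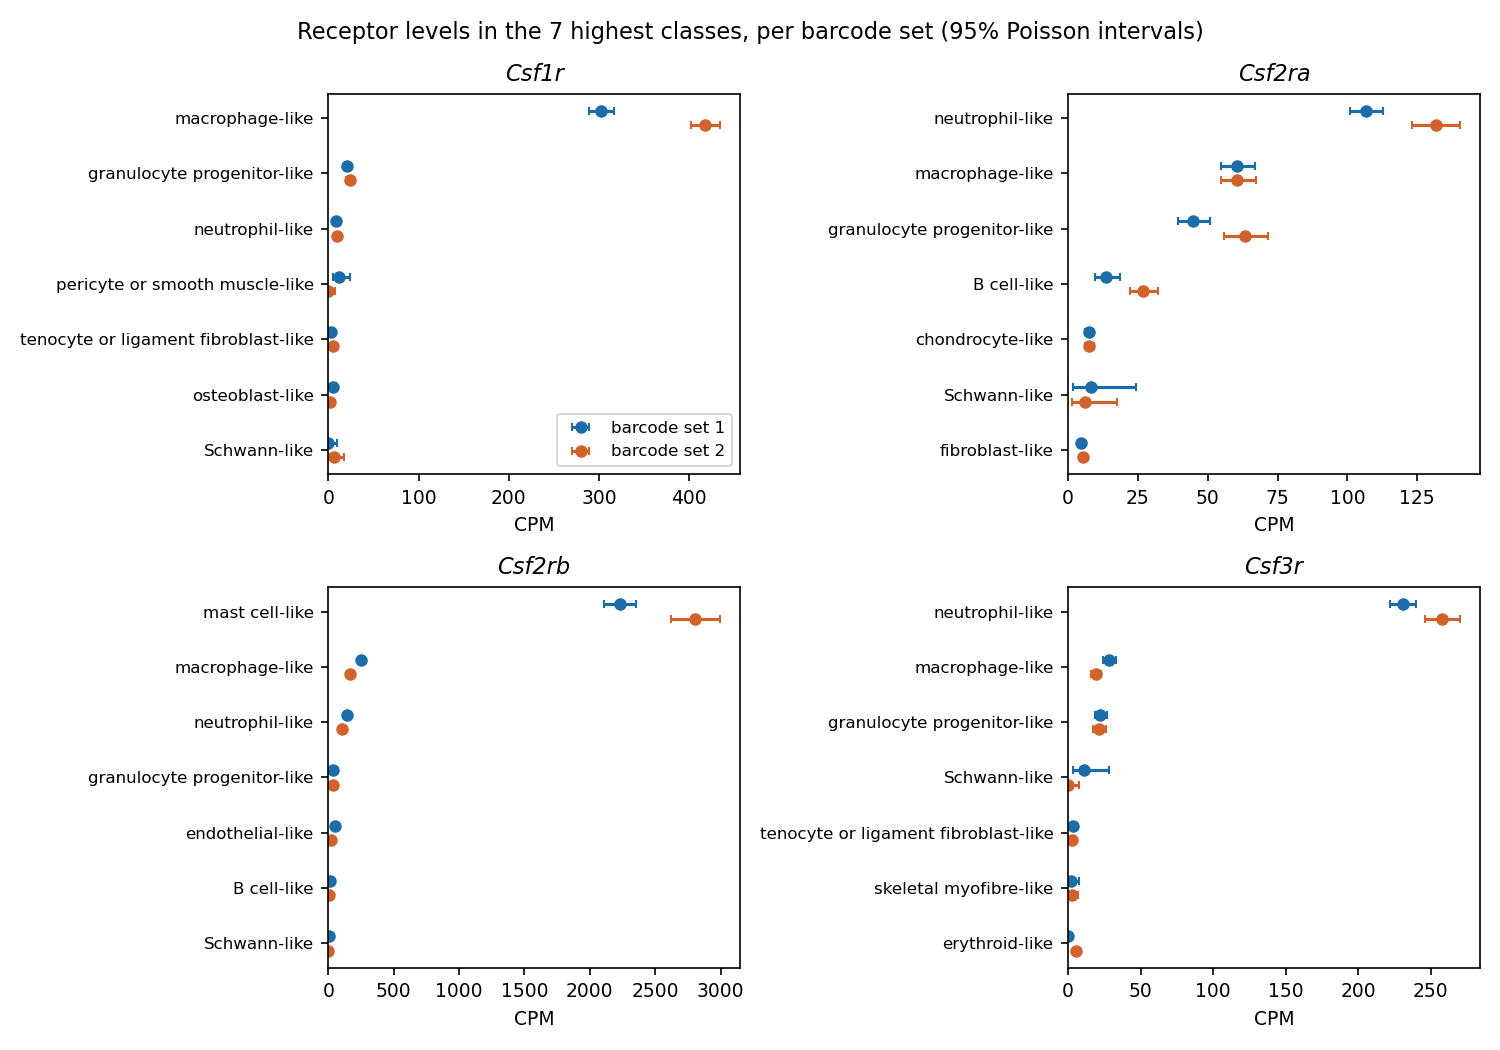
CPM of the 4 receptors in the 7 groups of cells where each was highest, with barcode set 1 in blue and set 2 in orange and bars for 95% Poisson intervals of counting error. Csf1r led in macrophage-like cells, Csf2rb in mast cell-like cells, and Csf2ra and Csf3r in neutrophil-like cells in both sets.

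Genes with a pattern like that of each member were sought across the 30 clusters, as Pearson's r of log2(CPM + 10) over 13007 genes; clusters share libraries, so r is a description. Csf1 was most like Ugdh (r = 0.91), Ddr2 and Gfpt2, of which Ddr2 encodes a collagen receptor. Csf2 was most like Gm47896 (r = 0.88), U90926 and the chemokine gene Cxcl5. Csf3 was most like Gm31522 (r = 0.82), the acute phase gene Saa3 and Ch25h. Of these, Gm47896, U90926 and Gm31522 peaked at only 11.9, 17.2 and 23.4 CPM, so their r rests on levels near the 10 CPM added. Il34 was most like Col18a1 (r = 0.89), Map1b and Tbx3. Among receptors, Csf1r was most like Clec4a3 (r = 0.98), Wfdc17 and Gm46224. Csf2ra was most like Itgb2 (r = 0.96), an integrin chain of leukocytes, Ncf1 and Ebi3. Csf2rb was most like Pik3r6 (r = 0.96), Plek and Galc, and Csf3r like Fcgr4 (r = 0.97), Fgr and B430306N03Rik. Csf2ra and Csf3r resembled each other at r = 0.87, and Csf1 and Csf2 at r = 0.58.

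Inflammatory genes that IL-1, TNF or IL-17 induce together with CSFs formed a list of 20, all tested. In cluster 0, 10 were called higher and 4 lower, with a median log2 ratio of 1.08 beside -0.52 over all genes. Of all genes, 3.94% were higher and 34.3% lower there. Those higher included Cxcl1, a neutrophil chemoattractant, at 13046 CPM, Ccl2, a monocyte chemoattractant, at 11457 CPM, and Ptx3, Cxcl5, Saa3 and Il6. Fibroblast-like cells had 6 higher and 5 lower (median 0.63 beside -0.07), beside 8.61% and 20.4% of all genes. Il1a, Il1b, Tnf and Lcn2 were lower in both. Macrophage-like cells had 9 higher and 5 lower (0.80 beside -0.90), beside 9.91% and 45.3% of all genes. Among the higher were Il1a, Il1b at 1981 CPM, Tnf at 1463 CPM and the neutrophil chemoattractant gene Cxcl2 at 23339 CPM. Tenocyte or ligament fibroblast-like cells had none higher and 17 lower (-1.74 beside -0.16), beside 6.61% and 21.1% of all genes.

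Receptors for those inducers were a list of 10. Cluster 0 had Il1r1, at 410.0 CPM, and Osmr higher and Il1rap and Tlr4 lower, beside 3.94% and 34.3% of all genes (median log2 ratio 0.32 beside -0.52). Fibroblast-like cells had Il17rc and Osmr called higher and Il1rap and Tnfrsf1b lower, beside 8.61% and 20.4% of all genes (0.52 beside -0.07). Il1r1, at 182 CPM, was not called there. Tnfrsf1b, a TNF receptor gene, peaked in macrophage-like cells at 546 CPM. The pattern receptor gene Tlr2 stood at 274 CPM there (265 to 283) and at 272 CPM in synovial lining fibroblast-like cells, with no difference beyond counting error, and was called higher in both and in cluster 24. The inducer genes Il1b and Tnf were called higher in macrophage-like cells and Il1r1 in cluster 0, and a link to the CSF levels was not tested. By cluster, Csf1 and Csf2 were highest in cluster 1, at 887 and 614 CPM. That cluster belongs to the fibroblast-like class, where Il1r1 was not called.

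Of 20 genes of receptor signalling, 13 were called higher and none lower in macrophage-like cells (median log2 ratio 1.39 beside -0.90 over all genes). Neutrophil-like cells had 12 higher and 1 lower (1.501 beside -1.30), and mast cell-like cells 10 and 2 (0.79 beside -1.03). Over all genes, 9.91% were higher and 45.3% lower in macrophage-like cells, and 10.5% and 55.6% in neutrophil-like cells. The shares in mast cell-like cells were 6.78% and 25.3%. In B cell-like cells Csf2ra was not called and the other receptor members were lower. These cells had 10 signalling genes higher and 3 lower (0.88 beside -0.01), beside 22.2% and 30.1% of all genes. Tyrobp, an adaptor of myeloid receptors, reached 1732 CPM in neutrophil-like cells, and Gab2, a docking protein, 729 CPM in mast cell-like cells. Jak2, the kinase bound to the beta chain, was also highest in mast cell-like cells, at 703 CPM. Of 15 feedback and target genes of STAT signalling, mast cell-like cells had 5 higher and 6 lower (-0.52 beside -1.03). Macrophage-like cells had 4 and 5 (-0.46 beside -0.90), neutrophil-like cells 4 and 5 (0.28 beside -1.30) and endothelial-like cells 4 and 3 (-0.39 beside -0.06). In endothelial-like cells 11% of all genes were higher and 21.1% lower. In macrophage-like, neutrophil-like and endothelial-like cells the lower counts are no larger shares than those over all genes. Pim1, a kinase gene induced by STAT5, was called higher in macrophage-like, mast cell-like and neutrophil-like cells and peaked at 691 CPM in macrophage-like cells. Mcl1, a survival gene, peaked there too, at 1218 CPM.

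Of 15 myeloid transcription factor genes, macrophage-like cells had 9 called higher and 3 lower (median log2 ratio 1.96 beside -0.90 over all genes), granulocyte progenitor-like cells 6 and 7 (-0.05 beside -0.09), and neutrophil-like cells 3 and 7 (-0.65 beside -1.30). The lower counts in macrophage-like and neutrophil-like cells are smaller shares than the 45.3% and 55.6% of all genes called lower there. Of all genes, 9.91% were higher in macrophage-like cells and 10.5% in neutrophil-like cells. In granulocyte progenitor-like cells 14.8% of all genes were higher and 28% lower. The gene lists and the markers used for naming share some genes, so these counts are not independent of the names. Spi1, which encodes PU.1, was called higher in all 3 groups. Cebpb peaked at 1610 CPM in macrophage-like cells, and Runx1 at 565 CPM in B cell-like cells. Cebpe, a factor of granule formation, was higher in neutrophil-like and granulocyte progenitor-like cells and lower in macrophage-like cells.

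The list of other ligands and receptors of the same families had 14 of 15 genes tested, and mast cell-like cells had 4 higher and 3 lower, beside 6.78% and 25.3% of all genes (median log2 ratio -1.78 beside -1.03). Those higher were Il3, Il3ra, Csf2rb2 and Kit, the stem cell factor receptor gene, which is also a marker used to name these cells. Il3 rested on a single cell, which held 127 of its 130 UMIs in mast cell-like cells, where set 2 gave 128 of them. Il5 was called higher in granulocyte progenitor-like cluster 14, where 22 of 528 cells held its 788 UMIs. Of these 22 cells, 4.55% also had a UMI of the progenitor gene Elane, against 27.5% of the rest, and 9 had a Csf2 UMI. The 22 cells with Il5 held 108 of the 395 Csf2 UMIs of the cluster. Ptprz1, a reported receptor for IL-34, peaked in Schwann-like cells at 653 CPM, where Il34 was also called higher.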

How the data were processed

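The submitters deposited 1 merged matrix of whole-number UMI counts per gene and barcode, not normalized, made with Cell Ranger 7.0.0 per the file headers and the labels' protocols, on mm10 according to the submitters' notes on processing. The sources used here do not say if intronic reads were included. The members, all gene lists and the rule for naming clusters were chosen with earlier results of these data known.

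Kept barcodes had 500 or more genes, 1000 or more UMIs and no more than 10% of UMIs from mitochondrial genes. Scrublet (scanpy 1.11.5), run per barcode set, called 3 of 7160 and 1 of 8014 cells, which were removed. Counts scaled to 10000 per cell and log-transformed, 2000 variable genes, 30 principal components (in double precision, rounded to 4 decimals), 15 neighbours and Leiden clustering (leidenalg 0.10.2, resolution 1, seed 1) gave 30 clusters; 943 genes, the members, Csf2rb2 and the lists among them, were left out. Components were first computed in single precision, where runs on different processors differed, and double precision replaced it after results had been seen. Before the change a separate monocyte or dendritic-like group was named, and of the clusters rich in CSFs the one led by Saa3 was unnamed and the other fibroblast-like. A cluster took the class with the highest mean marker log2 fold (10 CPM added) when the median fold reached 1 and at least 3 markers had a fold of 1 or more and a UMI in 10% or more of its cells.

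CPM, exact Poisson and Clopper-Pearson intervals and conditional binomial intervals of ratios were computed from the deposited counts (scipy 1.17.1). With 1 sample there was no test. The planned comparison of knockout with wild type was not run, because cells could not be tied to a genotype by any label, and no measured value was used in place of a label. The calling rule was tested on simulated data. Genes named by rule are the members, Csf2rb2, the 3 genes most like each member (at least 500 UMIs) and the 2 most abundant genes of each list; other list genes, Elane, Cxcl3 and the genes leading clusters were named after their values were seen. GENCODE M21 (mm10), which holds 32158 of the 32285 gene IDs, gave coordinates and overlaps. Promoter sequences are RefSeq's (GRCm38.p6), matched for Csf1, Csf2, Csf2ra, Csf2rb2 and Csf3r of the 9 genes looked up. Alternatives were other cell filters, clustering settings, naming, doublet handling, barcode sets, level measures, call rules and thinning depths.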

Additional observations from a re-analysis of the deposited data

How the results depend on the processing

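Over 16 alternatives, the leading group of Csf1r (macrophage-like), Csf2rb (mast cell-like) and Csf3r (neutrophil-like) was the same in 16 and that of Il34 in 15, the exception being 15 principal components, where endothelial-like cells led. It was the same in 12 for Csf2ra, where a monocyte or dendritic-like group led in the rest, 8 for Csf1, 7 for Csf2 and 5 for Csf3, where some of the changes are only to another unnamed cluster, and a number kept after clustering again need not mean the same cells. The leading group was picked anew in each alternative, so its ratio could not fall below 1. With another clustering seed the fibroblast-like class led for Csf1 (5.85) and Csf2 (27.7), and monocyte or dendritic-like cells for Csf3 (3.58) and Csf2ra (6.22). Against the highest other group in place of all other cells, the ratio was 1.70 for Csf1, 1.76 for Csf2, 1.07 for Csf3 and 1.92 for Csf2ra, none of them called. The 18 pairs called higher became 29 with at least 1000 genes and 2000 UMIs a cell, 4 against the highest other group and 10 with a ratio of 4. Pairs of a list gene and a group called higher, 201 in the main setting, became 95 with a ratio of 4. Given the nearest class, a setting chosen after seeing the data, cluster 0 joined the fibroblast-like class, which then led for Csf1 (ratio 7.65) and Csf2 (42.3), while macrophage-like cells led for Csf3 (3.81). Without barcode set 1, Csf3 was led by macrophage-like cells (6.31), and the ratio of Il34 was 11.1, against 3.74 without set 2. Without the 5% of cells with the highest doublet scores, also chosen after seeing the data, 18 pairs were called. Shares of cells with a UMI in the leading group moved beyond the allowed spread in 14 of 16 cases with thinning to 1000 UMIs or none, the exceptions being Csf2rb without thinning and Csf3 at 1000 UMIs. No paired analysis was possible because no test was run and no label ties cells to replicates; leaving out a replicate was not possible for the same reason. Among alternatives run for the comparison of the leading group with other cells and for counts of pairs, 152 values were labelled the same. For a ratio, this means only that whichever group then led was still called, also where another group led than in the main setting. For a count, it means only that the count stayed within a set fold of the main one. Of the rest, 4 ratios were no longer called and 4 counts moved further. Depth limits small groups: Il34 in the 81 Schwann-like cells rests on 54 UMIs.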
